A study of Mus musculus with 4 samples.

Results

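The nuclear-encoded subunits of oxidative phosphorylation were followed complex by complex in γδ T cells from the lungs of mice with and without Aire. Members were taken by gene symbol, namely the numbered Ndufa, Ndufb, Ndufc, Ndufs and Ndufv genes for complex I, Sdha to Sdhd for complex II, Uqcr genes and Cyc1 for complex III, the Cox4 to Cox8 genes for complex IV and the Atp5 genes for complex V. This rule found 85 of the 22865 genes in the count table, with 37 in complex I, 4 in complex II, 9 in complex III, 18 in complex IV and 17 in complex V. RNA came from female C57Bl/6 mice aged 10 weeks, either Aire-/- or Aire+/+, with 2 libraries of each genotype and 500 cells per library. The cells were viable, stained for CD45 and TCRgd, and lacked staining for TCRb, CD27 and the Vg1,2,4,5 chains, and the submitters name the population Tgd17, the γδ T cells that make interleukin-17. Libraries were made with Smart-Seq2, which amplifies full-length cDNA from very few cells. The series asks how loss of Aire, the regulator through which the thymus shows tissue proteins to developing T cells, bears on gene expression in these peripheral cells.

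Oxidative phosphorylation runs in the inner mitochondrial membrane. Complex I takes electrons from NADH and complex II from succinate, complex III passes them to cytochrome c, and complex IV hands them to oxygen, while complexes I, III and IV pump protons that complex V, the ATP synthase, lets back to make ATP. γδ T cells that make interleukin-17 are known to rely on mitochondrial metabolism more than those that make interferon-γ.

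Total counts ran from 1106891 to 1265239 per library, of which the members took 0.717% and 0.729% in Aire-/- and 0.779% and 0.833% in Aire+/+ libraries. Aire itself had 0 counts in all 4 libraries and so checked no label. The ribosomal RNA precursor Rn45s took 16.24% to 20.35% of counts and was higher in both Aire-/- libraries. Whether each library is a separate mouse is not stated in the labels, and the p-values therefore rest on how far 2 libraries of a genotype differ, which could be technical variation alone. In bulk RNA, fewer cells of a type and less RNA per cell cannot be told apart. The γδ T17 marker list (9 of 9 genes tested) was present in every library at summed levels of 4028 to 6625 CPM. CPM are counts scaled to a common library size, taken from the tested genes' total and edgeR's TMM factor. Cd163l1 gave 2604 to 4356 CPM of these sums. The B cell list (9 of 10 genes in the table, all 9 tested) summed to 2762 and 2104 CPM in Aire-/- and 4353 and 2734 CPM in Aire+/+ libraries, and all of its members lay below 0. Dendritic cell genes summed to 4579 and 3802 against 9164 and 5751 CPM, nearly all of it from Cd74, H2-Ab1 and H2-Aa, antigen presentation genes that B cells share. The more specific Xcr1 went the other way, at 41.1 and 25.5 against 15.4 and 22.2 CPM (0.82). Itgax had 9 and 5 against 1 and 3 counts, Clec9a 7 and 4 against 2 and 2, and Zbtb46 3 and 7 against 2 and 3. Flt3 had no such lean, with 5 and 1 against 2 and 5 counts. Apart from Xcr1 these genes had too few counts to be tested. Macrophage and monocyte genes summed to 359.9 and 405.5 against 864.6 and 427.8 CPM, most of it Ctss (246.6 and 243.3 against 410.5 and 301.2) and Apoe (91.3 and 83.9 against 248.1 and 89.8). Lyz2 varied by library, at 0.91 and 57.5 against 150.3 and 1.71 CPM. Cd14 had 0 and 0 against 32 and 11 counts and Mrc1 2 and 3 against 13 and 12. Emr1 leaned the other way, with 15 and 3 against 2 and 6. Plasma cell genes summed to 329.7 and 436.6 against 1710 and 1117 CPM. Igj, the immunoglobulin joining chain, carried that difference with 0 and 3.77 against 1353 and 707.6 CPM. It was 1 of the 2 genes called over the whole table. Mzb1 stood at -0.99 and Prdm1 at -0.16, while Sdc1 (0.29) and Xbp1 (0.10) lay above 0. Most of the plasma cell sum in Aire-/- libraries was Sdc1, at 206.4 and 303.6 against 159.2 and 259.2 CPM in Aire+/+. Of the T17 genes 9 of 9 lay above 0, and the CD3 and CD247 genes summed to 1390 and 1504 against 1004 and 1532 CPM. Lung epithelial genes summed to at most 14.55 CPM and red cell genes had 0 counts in all 4 libraries. The part of these other cells in the results below was not tested.

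No member changed between the genotypes by the test over all genes, and the members as a group lay slightly lower in Aire-/- libraries. Of the 85 members, 75 had enough counts to be tested. edgeR's quasi-likelihood test called 0 of them lower or higher at an adjusted p under 0.05, where it called 0.0204% of all 9783 tested genes lower and 0.0% higher, and the smallest adjusted p among the members was 0.89. DESeq2's Wald test and limma-voom also called 0 members, against 0.0307% and 0.0102% of all genes. At an unadjusted p under 0.05 the members numbered 2 lower and 0 higher, against 2.77% and 2.8% of all genes. Of the 75 members, 52 (69.3%) had a log2 fold change (Aire-/- minus Aire+/+) below 0, against 49.1% of all tested genes. The median was -0.14 over the members and 0.01 over all tested genes, with single members from -0.84 to 0.47 and a median standard error (SE) of 0.28.

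The lower level was seen in sums as well as in single genes, and it was small. Summed over all members, the level was 7490 and 7604 CPM without Aire, against 7963 and 8218 CPM with it, so the genotypes did not overlap. The Aire-/- mean was 7547 ± 80.7 CPM and the Aire+/+ mean 8090 ± 180 CPM (SD, n = 2 each), a ratio of 0.933. Both Aire-/- values lay below both Aire+/+ values for 24 of 75 members (32.0%), where this was so for 17.3% of all tested genes. Both lay above for 4 members, Ndufv1, Ndufs1, Sdhd and Atp5j2, against 17.1% of all genes. The size varied with the libraries compared. The median difference of the members ran from -0.24 (Aire-/- replicate 1 against Aire+/+ replicate 2) to -0.04 (Aire-/- replicate 2 against Aire+/+ replicate 1), while libraries of the same genotype differed by -0.07 (the first minus the second Aire-/- library) and -0.10 (the first minus the second Aire+/+ library). Leaving out Aire+/+ replicate 2 gave a median of -0.08 over all members, leaving out Aire-/- replicate 1 gave -0.09, and leaving out Aire-/- replicate 2 gave -0.21.

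**Figure D1:**
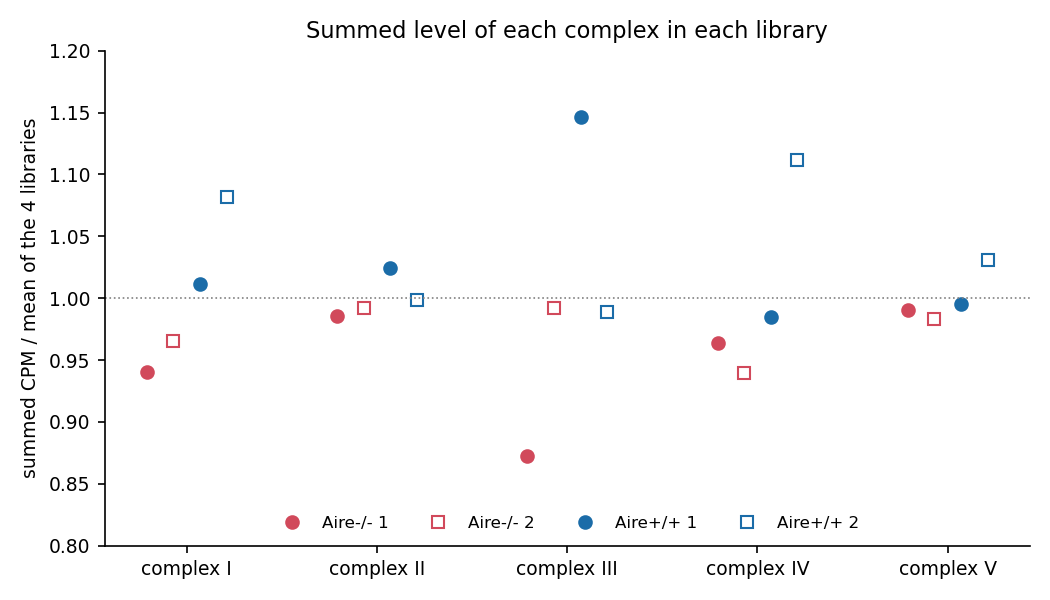
Summed level of each complex in each library, as CPM divided by the mean of the 4 libraries (y axis), for complexes I to V (x axis); filled circles are replicate 1 and open squares replicate 2, red Aire-/- and blue Aire+/+. In complexes I, II, IV and V both red points lie below both blue points, with ratios of 0.91, 0.978, 0.908 and 0.974, and in complex III Aire-/- replicate 2 lies level with Aire+/+ replicate 2.

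**Figure D2:**
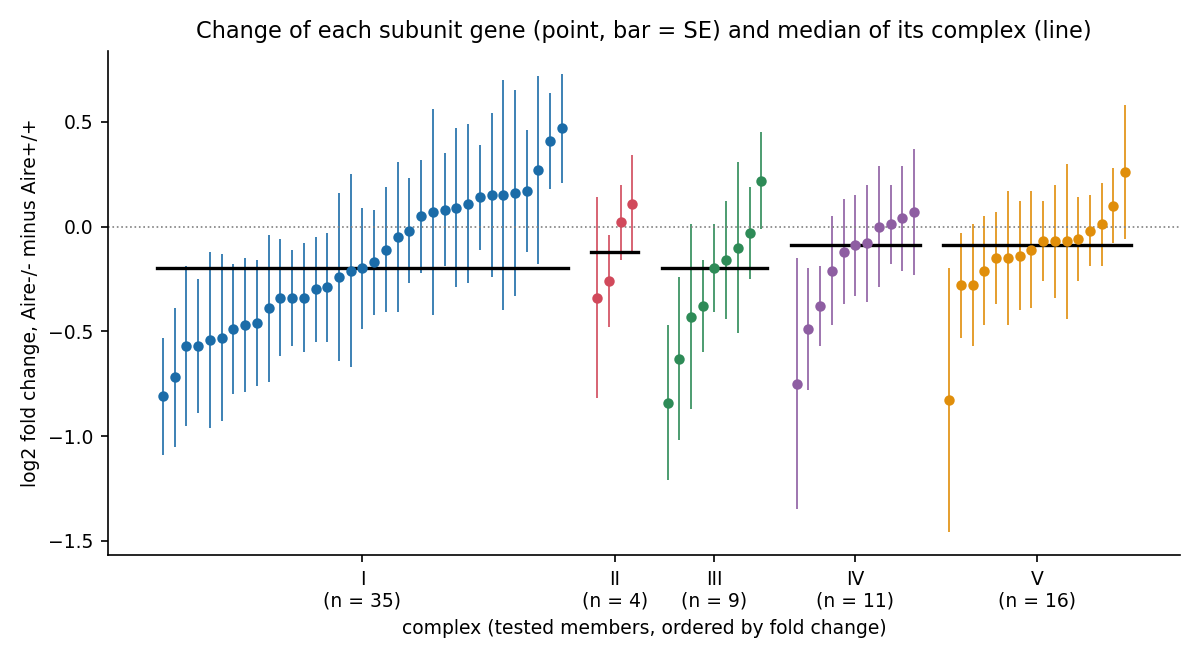
Log2 fold change of each of the 75 tested members (points, ordered within each complex; bars, SE) on the y axis, with complexes I to V along the x axis and the median of each complex as a line. The medians lie between -0.20 and -0.09, and most error bars cross 0.

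Transcript length moved with this result. The members are short, with a median of 918 bases for the longest annotated transcript against 3261 over all tested genes, and most short genes of the table lay lower in Aire-/- libraries, members or not. Among all 441 tested genes with a transcript under 1 kb, the median log2 fold change was -0.22 and 38.1% had both Aire-/- values below both Aire+/+ values. Over the 41 tested members under 1 kb these values were -0.21 and 36.6%. Among the 34 tested members of 1 kb or more the median was -0.05, against 0.02 for all tested genes of 1 kb or more. Of these members 26.5% had both Aire-/- values below, against 16.4%. They were still the shorter set, with a median of 1613.5 bases against 3387. Between 1 and 2 kb the median was -0.05 over 25 members and -0.08 over all 1776 tested genes. There 8 of the 25 members had both Aire-/- values below, against 23.6% of those genes. From 2 to 4 kb the medians were -0.07 over 7 members and 0.04 over all. Across the 75 members, log2 length and log2 fold change correlated with Pearson's r = 0.33 and Spearman's rho = 0.33, a description over genes of the same 4 libraries. In an alternative added after the data were seen, a smooth trend over length and GC of all genes was subtracted. The members' median was then 0.01 and 37 of 75 lay below 0 (49.3%), against a median of 0.02 and 47.9% over all genes.

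**Figure D3:**
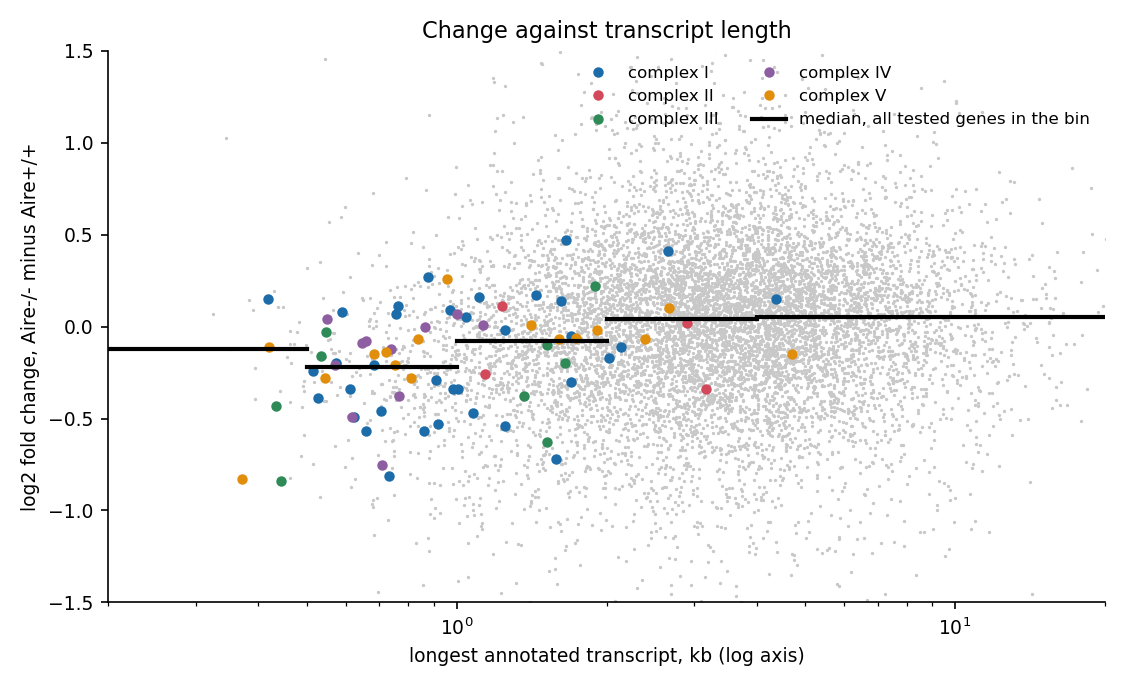
Log2 fold change (y axis) against the longest annotated transcript in kb (x axis, log) for 9705 tested genes with a known length (grey), the 75 tested members coloured by complex, and the median of all tested genes in each length bin (black lines). The bin of 0.5 to 1 kb, where 36 members stand, has a median of -0.22 over all genes, and the bins above 2 kb lie at 0.04 and 0.05; 108 genes fall outside the axes.

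The promoters of the members were searched for 4 motifs of factors known to act on respiratory genes. RefSeq (GRCm38.p6, the assembly that mm10 names) gave windows from 250 bases before to 50 after the start for 69 of the 85 members. The NRF1 motif GCGCATGCG, read on both strands (it overlaps its own reverse complement), stood in 8 of 69 members (11.6%) against 2.61% of 17492 protein-coding genes. YY1's AAGATGGCG stood in 8 members (11.6%) against 2.14%, ERRA's TCAAGGTCA in 2 (2.90%) against 0.38%, and the ETS/GABPA motif CCGGAAGT in 5 (7.25%) against 5.69%. Those 17492 genes include many with too few counts to be tested here. Among tested genes with a window, 802 had the ETS/GABPA letters and 7041 did not. That is a larger share than among the tested members, with 5 and 58. For NRF1 the tested genes numbered 353 with and 7490 without, and for YY1 318 and 7525, against 8 and 55 members for each motif. For ERRA they numbered 21 and 7822, against 2 and 61 members. A match is a run of letters and not a shown site. The 8 windows with the NRF1 letters are given here for their share of members against that of all genes; each is written 5′ to 3′ on the strand of its gene, and capitals mark the motif or its reverse complement.

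Ndufa8 (chr2:36049329-36049357, minus strand): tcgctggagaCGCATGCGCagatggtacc
Ndufa11 (chr17:56717692-56717720, plus strand): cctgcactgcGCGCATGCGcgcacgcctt
Uqcrc1 (chr9:108936668-108936696, plus strand): actccgctctGCGCATGCGcagcgcggct
Uqcr11 (chr10:80406808-80406836, minus strand): atcgccttcaCGCATGCGCtatacgtctg
Cox6a1 (chr5:115349102-115349130, minus strand): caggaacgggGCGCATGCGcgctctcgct
Atp5g2 (chr15:102671071-102671099, minus strand): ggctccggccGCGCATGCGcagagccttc
Atp5k (chr5:108434431-108434459, minus strand): tttcactgcgGCGCATGCGcctttctggc
Atp5l (chr9:44920965-44920992, minus strand): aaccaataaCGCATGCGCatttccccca

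The median log2 fold change of these 8 was -0.40, with a range from -0.84 to -0.20, against -0.08 for the 55 tested members with a window but without the letters. The other motifs went the other way, with medians of -0.03 with and -0.14 without the ETS/GABPA letters, -0.01 and -0.15 for ERRA, and -0.06 and -0.15 for YY1. These are descriptions of 4 motifs in overlapping sets of genes, with no test. With the length and GC trend removed the 8 with the NRF1 letters had a median of -0.23, and 6 lay below 0, against 0.01 for the 55 without. The medians with and without the letters were then 0.22 and -0.01 for ETS/GABPA and 0.16 and -0.005 for ERRA. For YY1 they were -0.03 and 0.01, so it no longer went the other way. Among all 353 tested genes with the NRF1 letters, 51.0% lay below 0 and the median was -0.02 before the trend was removed. The factor itself, Nrf1, stood at 96.8 and 62.2 CPM in Aire-/- and 90.5 and 73.6 CPM in Aire+/+ libraries, overlapping ranges. The YY1 letters lay 23 to 36 bases after the start in 7 members, the complex V symbols Atp5j2 and Atp5sl and 5 members of complex I, of which the latter are shown for their like position.

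Ndufa9 (chr6:126849097-126849125, minus strand): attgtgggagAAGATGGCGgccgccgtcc
Ndufc1 (chr3:51408915-51408943, minus strand): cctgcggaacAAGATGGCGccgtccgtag
Ndufs4 (chr13:114388045-114388069, minus strand): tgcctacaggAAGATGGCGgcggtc
Ndufs6 (chr13:73328433-73328459, minus strand): ggtcaccggcAAGATGGCGgcggtgct
Ndufs7 (chr10:80249463-80249491, plus strand): ggccgaggccAAGATGGCGgcgctggcgg

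These members did not move alike, with log2 fold changes of 0.17 for Ndufa9, -0.54 for Ndufc1, -0.05 for Ndufs4, 0.07 for Ndufs6 and -0.34 for Ndufs7.

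Complex I, the NADH dehydrogenase, is the largest of the complexes. Of its 35 tested members 22 (62.9%) lay below 0, the median was -0.20, and 15 (42.9%) had both Aire-/- values below both Aire+/+ values, against 17.3% of all tested genes and 38.1% of all those under 1 kb. Its summed level was 1900 and 1950 CPM in Aire-/- and 2044 and 2186 CPM in Aire+/+ libraries, a ratio of 0.91. Its median lay below 0 in all 4 pairs of an Aire-/- with an Aire+/+ library, from -0.27 to -0.11, and from -0.24 to -0.18 with each library left out. With the length and GC trend removed it was -0.004.

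The core subunits of complex I carry the flavin and the iron-sulfur clusters, and its electron-input module (3 genes) had a median of 0.41 and a summed ratio of 1.17. The module that passes electrons to quinone (4 genes) had a median of -0.15 and a summed ratio of 0.937, close to the whole complex. No test set core against accessory subunits. Ndufv1, which binds NADH and the flavin, stood at 114 and 95.2 CPM in Aire-/- and 66.3 and 85.6 CPM in Aire+/+ libraries (log2 fold change 0.47, SE 0.26). Ndufs1, the largest iron-sulfur subunit, stood at 140 and 166 against 125 and 104 CPM (0.41, SE 0.23). In both genes the genotypes did not overlap and Aire-/- was the higher. Ndufv2, the third subunit of that electron-input module, stood at 79.5 and 72.6 against 93.7 and 94.1 CPM (-0.30, SE 0.25) and lay the other way. In the quinone module, Ndufs3 (0.05) and Ndufs7 (-0.34) overlapped between genotypes. Ndufs8 (-0.34, SE 0.26), of the same module, had both Aire-/- values below, at 69.4 and 67.0 against 78.4 and 94.97 CPM. None of these named core subunits had an adjusted p under 0.91 by edgeR.

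Accessory subunits of complex I, which surround the core and of which many are needed to assemble it, were 28 of its 35 tested members and 19 of the 22 below 0. Of 28 tested, 19 (67.9%) lay below 0, 13 (46.4%) had both Aire-/- values below both Aire+/+ values, and 0 had both above. Over all tested genes these shares were 49.1%, 17.3% and 17.1%, and over all tested genes under 1 kb they were 74.1%, 38.1% and 3.63%. Their summed level was 1250 and 1256 CPM in Aire-/- and 1412 and 1528 CPM in Aire+/+ libraries, a ratio of 0.853. Their median was -0.20, and with the length and GC trend removed it was -0.05, with 15 of 28 below 0. The 28 include Ndufa4, since assigned to complex IV, at 97.7 and 115 against 134.1 and 134.3 CPM (-0.34). By its symbol it was counted in complex I throughout, here among the 19 and the 13, and left out of complex IV. Ndufb10, a subunit of the membrane arm, gave 47 and 52 counts without Aire against 101 and 93 with it. That is 42.9 and 49.0 against 81.6 and 79.6 CPM, clear of each other and close within each genotype. Its log2 fold change was -0.81 (SE 0.28, 1.75-fold lower), the smallest unadjusted p of all members (0.0137), with an adjusted p of 0.89 by edgeR. Ndufv3, a small subunit attached to the electron-input module, stood at 31.1 and 27.4 against 48.5 and 47.9 CPM (-0.72, SE 0.33). Ndufa8, on the face of the enzyme toward the intermembrane space, stood at 40.2 and 38.7 against 66.3 and 50.5 CPM (-0.57, SE 0.32). All 3 had both Aire-/- values below both Aire+/+ values, and with the length and GC trend removed their differences were -0.58, -0.64 and -0.36. On the other side, Ndufa5 of the matrix arm stood at 17.4 and 34.0 against 21.8 and 20.5 CPM (0.27, SE 0.45), where 1 Aire-/- library was the highest and the other the lowest. Ndufa1 (76.7 and 35.8 against 38.8 and 63.3 CPM) and Ndufa12 (42.0 and 22.6 against 15.4 and 42.8 CPM) differed more within than between genotypes. Ndufs5 had 0 counts in all 4 libraries, which allows up to 3 counts in each, or 2.37 to 2.71 CPM of all counts. It was the 1 structural subunit of complex I listed at 0, and how reads were assigned to genes is not given in the sources used here.

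Complex II, succinate dehydrogenase, which also serves the tricarboxylic acid cycle, stood nearly level. Sdha, the flavin subunit that oxidises succinate, was the steadiest, at 380.0 and 374 CPM in Aire-/- and 365 and 379.9 CPM in Aire+/+ libraries (0.02, SE 0.18). Sdhb, which holds the iron-sulfur clusters, stood at 119 and 118 against 150.3 and 133 CPM (-0.26, SE 0.22), with no overlap. The membrane anchor Sdhd stood at 109.6 and 122 against 106 and 108 CPM (0.11, SE 0.23), again with no overlap but higher in Aire-/-. The other anchor, Sdhc, gave 20 and 18 counts without Aire against 37 and 17 with it (-0.34, SE 0.48), so 1 Aire+/+ library set its difference. The summed level was 627 and 631 against 651 and 635 CPM, a ratio of 0.978. The median of -0.12 over these 4 genes became 0.04 without Aire+/+ replicate 1.

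Complex III, the cytochrome bc1 complex, had 8 of 9 members below 0 and a median of -0.20. Uqcr11, a small accessory subunit, gave 21 and 23 counts without Aire against 47 and 41 with it. This was 19.2 and 21.7 against 38.0 and 35.1 CPM with no overlap, a log2 fold change of -0.84 (SE 0.37, 1.78-fold lower, adjusted p = 0.89 by edgeR). It was the largest difference among all 75 tested members, on counts of 21 to 47, and was -0.53 with the length and GC trend removed. Uqcrfs1, the Rieske iron-sulfur protein, stood at 142 and 164 against 225 and 174 CPM (-0.38, SE 0.22), also without overlap. Cyc1, the cytochrome c1 that passes electrons to cytochrome c, spread widely, at 34.7 and 67.0 against 104 and 53.1 CPM (-0.63, SE 0.39). Its highest and lowest libraries were Aire+/+ replicate 1 and Aire-/- replicate 1, and the replicates numbered 2 went the other way round. The core proteins went apart, with Uqcrc1 at 279 and 282 against 373 and 270.4 CPM (-0.20, SE 0.21) and Uqcrc2 at 135 and 177 against 129 and 139 CPM (0.22, SE 0.23). Both overlapped between genotypes. Summed levels of 832 and 946 against 1093 and 943 CPM overlapped too. The median was -0.09 without Aire+/+ replicate 2 and -0.12 with the length and GC trend removed.

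In complex IV, cytochrome c oxidase, the catalytic subunits are encoded by mitochondrial DNA and the nuclear members are regulatory and structural. Of 11 tested members 7 lay below 0, with a median of -0.09. Cox4i1, the regulatory subunit that binds ATP, gave 339 and 275 counts without Aire against 446 and 447 with it. At 309.6 and 259 against 360.4 and 382 CPM the genotypes did not overlap (-0.38, SE 0.19, adjusted p = 0.91 by edgeR), and the difference was -0.16 with the length and GC trend removed. Cox7c, at 7.31 and 8.49 against 12.1 and 14.5 CPM (-0.75, SE 0.60), was the other member with both Aire-/- values below, on 8 to 17 counts. These 2 of 11 (18.2%) were near the share over all tested genes (17.3%) and under that of tested genes under 1 kb (38.1%). Cox6b1, which faces the intermembrane space, stood at 75.8 and 53.8 against 74.3 and 108 CPM (-0.49, SE 0.29) and overlapped. Cox5a (-0.09) and Cox5b (0.0), subunits on the matrix side, Cox8a (0.04), Cox7b (0.07) and Cox7a2l (0.01) all overlapped. The summed level was 1377 and 1342 CPM in Aire-/- and 1406 and 1588 CPM in Aire+/+ libraries. The direction rested on Aire+/+ replicate 2, since the median was 0.02 without it, while it was -0.23 with Aire+/+ replicate 1 left out and -0.17 with Aire-/- replicate 2 left out, and 0.13 with the length and GC trend removed.

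Complex V, the ATP synthase, held its catalytic head level. Atp5b, the catalytic β subunit, stood at 654.0 and 653.5 CPM in Aire-/- and 653.7 and 672.5 CPM in Aire+/+ libraries (-0.02, SE 0.17). Atp5a1, the α subunit, stood at 648 and 560.1 against 587.5 and 537 CPM (0.10, SE 0.18), and Atp5d, in the central stalk, at 205.5 and 210.3 against 209 and 204 CPM (0.01, SE 0.20). Over the 5 genes of the head and central stalk the summed level was 1847 and 1762 against 1781 and 1793 CPM, a ratio of 1.01. In the peripheral stalk, which holds the head still, 3 of 4 genes had both Aire-/- values below both Aire+/+ values, by small steps. These were Atp5j (-0.28), Atp5h (-0.15) and Atp5f1 (-0.07), while Atp5o (-0.07) overlapped. The share was 17.3% over all tested genes and 38.1% over those under 1 kb. With the length and GC trend removed the stalk median was 0.03, with 2 of 4 below 0. The 3 genes of the proton-carrying c ring, Atp5g1 (-0.15), Atp5g2 (-0.21) and Atp5g3 (-0.14), all lay below 0 and all overlapped. Among the small membrane subunits, Atp5k gave 6 and 10 counts without Aire against 17 and 15 with it (-0.83, SE 0.63). Atp5l stood at 69.4 and 54.7 against 64.7 and 86.4 CPM (-0.28, SE 0.29), and Atp5j2 was higher at 47.5 and 47.2 against 35.6 and 43.6 CPM (0.26, SE 0.32). In all, 13 of 16 tested members lay below 0, with a median of -0.09. That median came to -0.02 with Aire+/+ replicate 2 left out, -0.16 with Aire+/+ replicate 1 out and -0.22 with Aire-/- replicate 2 out, and to 0.01 with the length and GC trend removed. Atp5s and Atp5sl match the symbol rule but encode no subunit of the synthase, and Atp5s, with 4 to 14 counts, was not tested.

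Levels per kb of transcript differed far more between genes than between genotypes. Over the 4 libraries the median tested member of complex IV stood at 126 CPM per kb of its longest transcript. The median of tested members was 119 in complex V, 102 in complex II, 76.5 in complex III and 50.3 in complex I. Only 11 of the 18 members of complex IV were tested. The others had at most 5 counts in a library, and counting them would lower its median. Library medians of complex IV (116 to 145 CPM per kb) and complex V (112.5 to 139) overlapped, as did those of complexes II (96.5 to 106) and III (71.3 to 106.5), so the order within each of these pairs did not exceed the spread, whereas all those of complex I (46.8 to 55.2) lay below all those of complex III. Within complexes, Cox4i1 was the highest of all members at 429 ± 71.9 CPM per kb (SD, n = 4), followed by Atp5b at 344 ± 4.90. Ndufa4, named for complex I but since assigned to complex IV, led complex I at 197 ± 28.8, Uqcrh led complex III at 221 ± 6.36 and Sdha complex II at 129 ± 2.39. These ranks depend on the length used. By the length of all annotated exons joined (the union of exons), Cox8a (253) and Cox7a2l (245) lay above Cox4i1 (212). Atp5a1 (186) then lay above Atp5b (155), Ndufa1 (128) above Ndufa4 (87.1) and Uqcrfs1 (129) above Uqcrh (97.8), while Sdha (90.85) still led complex II. The lowest were Ndufb2 at 3.13, Sdhc at 6.28, Atp5g1 at 12.4, Cox7c at 14.97 and Uqcrq at 16.8 CPM per kb. For some of these the length decides the value: with the shortest APPRIS principal transcript, the isoform GENCODE marks as the main one, Ndufb2 stood at 30.0, Atp5g1 at 98.0 and Uqcrq at 62.9, while Sdhc stayed at 6.28. By that length, also chosen after the data were seen, complex I was still the lowest, at 56.3, and Cox4i1 was still the highest member, at 440.

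**Figure D4:**
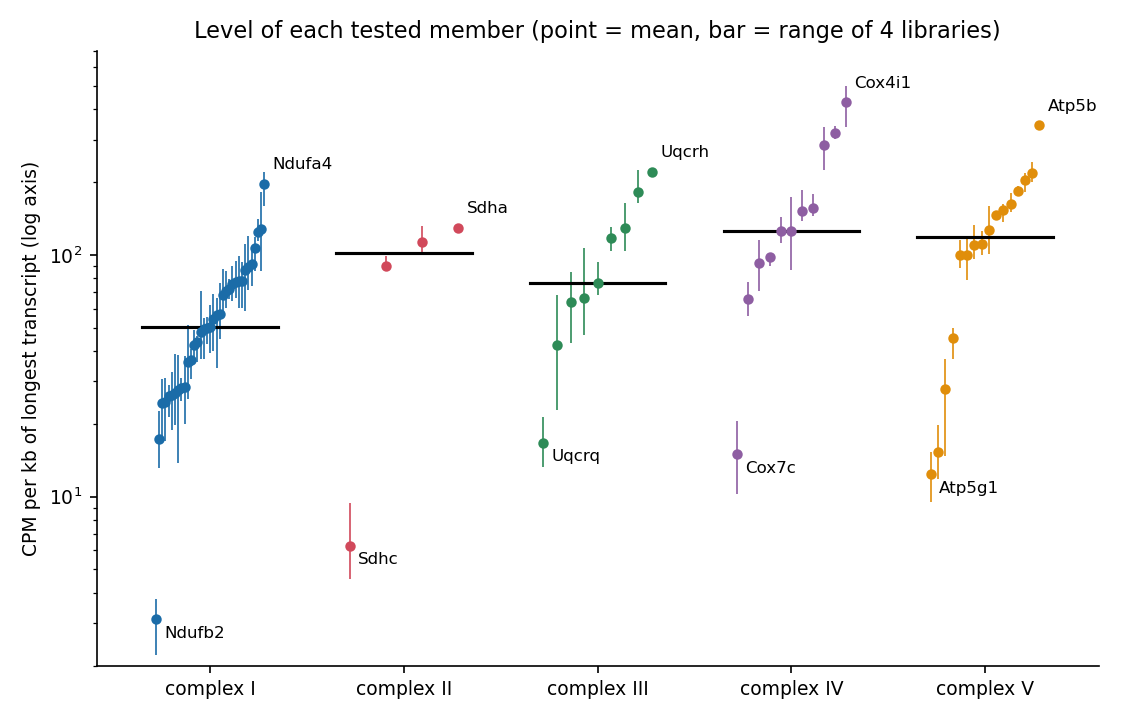
Level of each of the 75 tested members in CPM per kb of its longest annotated transcript (y axis, log), by complex (x axis); points are means and bars the range of the 4 libraries, lines the median of each complex, with the highest and lowest member named. Complex I has the lowest median at 50.3 and Cox4i1 the highest single level at 429.

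Subunits with tissue isoforms were present almost only in their common form. Cox4i1 had 275 to 447 counts while Cox4i2, the form of lung and of low oxygen, had 0 in all 4 libraries. Cox6a1 had 85 to 124 counts against 0 to 1 for Cox6a2, Cox7a2 had 65 to 83 against 0 for Cox7a1, and Cox8a had 153 to 217 against 0 for Cox8b, the other form of each pair being that of heart and muscle. The testis forms Cox6b2 and Cox8c had 0 and 0 to 1 counts, and Cox7b2 had 5 counts in Aire-/- replicate 1 and 0 elsewhere. Ndufa4l2, which low oxygen induces, had 0 counts beside 107 to 166 for Ndufa4. A count of 0 allows up to 3 counts per library. The c ring, by contrast, drew on all 3 of its genes, which encode the same mature protein behind different import signals. By the APPRIS lengths Atp5g2 stood at 187, Atp5g3 at 112 and Atp5g1 at 98.0 CPM per kb.

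The genes lie on 19 chromosomes, with 3 on the X. Near-identical annotated copies (at least 95% identity over at least 50% of the transcript) exist for 7 members, Atp5h, Atp5k, Atp5l, Atp5o, Ndufb11, Ndufs3 and Uqcrb, whose counts are uncertain where reads could be split. For 29 members another annotated gene overlaps on the opposite strand, and without strand such reads cannot be told apart. Ndufs1 (with Eef1b2) and Cox4i1 (with Emc8) are among them. Some members overlap a gene on their own strand, which strand would not separate, among them Cox4i1 (Gm20388), Ndufa13, Ndufb2, Ndufb8 and Ndufb9. Ndufb10 and Uqcr11 have no such copy or overlap. Ndufb10 lies on chromosome 17 (24722060 to 24724423), Uqcr11 on chromosome 10 (80402997 to 80406821), Ndufv1 on chromosome 19 (4007499 to 4012755) and Cox4i1 on chromosome 8 (120668225 to 120674209) of GRCm38.p6.

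Genes around the complexes were described from lists written with the members. None of them held a gene called lower or higher over all genes by edgeR, DESeq2 or limma-voom. Of 35 tested assembly factors, which build the complexes without being part of them, 20 lay below 0 with a median of -0.06, and at an unadjusted p under 0.05 there were 0 lower and 1 higher. That was Ndufaf7, a methyltransferase needed to assemble complex I, at 49.3 and 37.7 against 23.4 and 26.5 CPM (0.80, SE 0.35). Timmdc1, a complex I membrane-arm factor, stood at 31.1 and 18.9 against 9.70 and 14.5 CPM (1.04, SE 0.50). Cox17, the copper chaperone of complex IV, stood at 19.2 and 24.5 against 34.8 and 39.4 CPM (-0.76, SE 0.37). In each of these 3 genes the genotypes did not overlap. Of the 35 tested factors, 10 had both Aire-/- values below both Aire+/+ values and 7 had both above. Over all tested genes these shares were 17.3% and 17.1%.

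Regulators and the machinery that expresses mitochondrial DNA had 11 of 15 tested genes below 0, with a median of -0.08, and 0 at an unadjusted p under 0.05. Tfam, which packages and transcribes mitochondrial DNA, stood at 118 and 129 against 185 and 148 CPM (-0.43, SE 0.23). Esrra, the estrogen-related receptor α that drives respiratory genes, stood at 12.8 and 8.49 against 19.4 and 19.7 CPM (-0.87, SE 0.52), and its coactivator Ppargc1a at 10.96 and 8.49 against 20.2 and 13.7 CPM (-0.80, SE 0.55). All 3 were lower in both Aire-/- libraries than in either Aire+/+ library, the last pair on counts of 9 to 25. The adjusted p was 0.91 or more for each by edgeR. Of the 15 tested genes of this list, 5 had both Aire-/- values below both Aire+/+ values and 1 had both above. Over all tested genes these shares were 17.3% and 17.1%.

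The tricarboxylic acid cycle and pyruvate entry, which feed the complexes, had no lean, with 10 of 20 below 0 and a median of 0.02. At an unadjusted p under 0.05 the list held 0 lower and 1 higher gene, Pdha1 of the pyruvate dehydrogenase, at 192 and 214.0 against 136 and 153 CPM (0.49, SE 0.21). Idh3a, a subunit of isocitrate dehydrogenase, stood at 159.8 and 170.7 against 118 and 138 CPM (0.37), and Mpc1, a subunit of the pyruvate carrier, at 98.7 and 132 against 142 and 157 CPM (-0.38). Among 9 tested carriers, proton-leak proteins and cytochrome c genes 4 lay below 0 (median 0.07), with the phosphate carrier Slc25a3 at 508 and 608 against 651 and 646 CPM (-0.22) and Vdac1 (0.25) and Vdac3 (0.18), outer-membrane channels. Of 7 antioxidant genes 3 lay below 0 (median 0.04), with the peroxiredoxins Prdx5 at -0.48 and Prdx3 at 0.33 and the thioredoxin reductase Txnrd2 at 0.68. Of 5 tested genes tied to the complexes that the symbol rule misses, 2 lay below 0 (median 0.16), with Ndufab1 at 0.18, Usmg5 at -0.17 and 2010107E04Rik at 0.27. At an unadjusted p under 0.05 these last 3 lists held 0 genes. Single libraries turned the direction of list medians, with -0.11 for the cycle without Aire+/+ replicate 2, -0.02 for the carriers without Aire+/+ replicate 1 and -0.36 for the genes missed by the rule without Aire-/- replicate 2. With a library left out the medians of assembly factors reached -0.25 (without Aire-/- replicate 1), those of regulators -0.32 and of antioxidants 0.22 (both without Aire-/- replicate 2). The 13 subunits encoded by mitochondrial DNA were not analysed here.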

How the data were processed

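Values are raw counts, whole numbers by gene symbol with a column for each of 4 libraries, in a single table the authors deposited. TopHat2 2.0.10, Cufflinks 2.2.1 and mm10 are named without roles per the submitters' processing notes, and which program counted reads, on which annotation and with what strand setting, is not given in the sources used here. Without molecular identifiers, intervals and floors (3 counts) cover counting error only.

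Counts were tested with edgeR 4.0.16 (R 4.3.3) on all 4 libraries by genotype, with TMM, filterByExpr (minimum count 10, total 15), quasi-likelihood tests and Benjamini-Hochberg adjustment over 9783 genes, called at 0.05. CPM used the tested genes' totals and TMM factors. The SE is the absolute log2 fold change over the square root of F. Lengths and copies came from GENCODE M21 (blastn 2.17.0), matching 85 members. Alternatives used DESeq2 1.42.0, limma 3.58.1, other filters and scalings, the replicate block, each library left out, Rn45s left out, and (added later) loess on length and GC (span 0.5). The tests were tried on simulated counts. Members, lists and tests were chosen with earlier results of these data known. Named genes are core subunits, isoform families, the highest and lowest per kb, and up to 3 by p per complex and direction and per list; others were named after their values were seen. The separate values of 1 member are not reported here.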

Additional observations from a re-analysis of the deposited data

How the results depend on the processing

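Every alternative fit called 0 members in any complex and 0 genes of the related lists at an adjusted p under 0.05, the replicate block included, and the reported edgeR test called 0 members at 0.1 too, while calls over all genes ran from 1 (limma-voom) to 63 (without Aire+/+ replicate 2), with 47 without a filter. Over the tested genes same-numbered libraries deviated with r = -0.077. With 2 libraries per genotype this cannot show whether the numbers mark a pairing, and the labels do not say. Among the members the median difference, first minus second library, was -0.07 in Aire-/- and -0.10 in Aire+/+. With the replicate block the median over all members was -0.13 and 6 genes were called over all, none a member. Leaving out each library in turn gave medians from -0.21 to -0.08 over all members, -0.24 to -0.18 in complex I, -0.15 to 0.04 in II, -0.26 to -0.09 in III, -0.23 to 0.02 in IV and -0.22 to -0.02 in V. With the length and GC trend removed they were 0.01, -0.004, -0.05, -0.12, 0.13 and 0.01 in that order, and upper-quartile scaling gave -0.23 in complex III. Members below 0 made up 59.2% without Aire+/+ replicate 2, 81.3% without Aire+/+ replicate 1 and 49.3% with the trend removed, against 69.3%. On raw library totals the log2 ratio of the summed level was -0.19 in complex I, -0.09 in II and -0.09 in V (from -0.14, -0.03 and -0.04), and the median of complex I was 49.0 CPM per kb. Without Rn45s in the totals, medians per kb were 60.1 in complex I, 122 in II, 151 in IV and 142 in V. By the union of exons they were 32.7, 74.2, 56.9, 68.4 and 39.7 in complexes I to V, which put complex V below complexes II, III and IV. By APPRIS lengths they were 56.3 in I, 151 in IV and 140 in V. Of 64 named genes, 12 changed sign without Aire+/+ replicate 1 and 5 under upper-quartile scaling, none being called. Of the 10 untested members, 6 had 0 counts in every library and the others were too shallow to test.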
